A study of Mus musculus with 36 samples.

Results

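The AP-1 and EGR immediate early factors described here were 10 genes of the 55536 listed in each library, namely *Fos*, *Fosb*, *Fosl1*, *Fosl2*, *Jun*, *Junb*, *Jund*, *Egr1*, *Egr2* and *Atf3*. They were chosen by name, through the GENCODE M21 symbol of their identifier, and each was found once. RNA sequencing had been performed on 36 libraries from brown pre-adipocyte lines at days 0, 2 and 6 of differentiation, to ask whether phosphorylation of RXRα at serine 22 alters gene expression. All cells descended from 2 monoclonal *Rxra*-/- lines, clones 48 and 66, in which the receptor gene had been disrupted with CRISPR/Cas9, and each clone then received a retroviral pBabe hygro vector with either wild-type mouse *Rxra* (*Rxra*WT) or *Rxra* with alanine in place of serine 22 (*Rxra*SA). Both genotypes therefore lacked the endogenous receptor and carried a transgene, and no line without a transgene was analysed here. At day 0 the cells were confluent and held in medium with insulin and T3. By day 2 they had received dexamethasone, IBMX and indomethacin in addition, and thereafter they were kept in insulin and T3 alone until day 6. Each clone, genotype and day had 3 libraries, which gave 6 libraries per genotype and day and 12 per day.

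AP-1 is a dimer of basic leucine zipper proteins, in which a FOS protein must pair with a JUN protein, while JUN proteins can also pair among themselves or with ATF proteins such as ATF3. EGR1 and EGR2 are zinc finger factors that bind GC-rich promoter elements. The genes of both groups are known as immediate early genes, because growth factors, serum, stress and cAMP can induce several of them within minutes and without new protein synthesis, mostly through the ERK pathway, serum response factor and CREB, and the resulting mRNAs are short-lived. In adipogenesis, *Fos*, *Jun* and *Egr2* are known for a brief induction at the onset of the hormonal cocktail, which lies between the days sampled here.

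Total counts per library lay between 11351078 and 24349263 (median 18338726). Levels are given as CPM, counts scaled for library size with edgeR's TMM method. *Rxra*, whose counts cannot tell the transgene from transcripts of the disrupted gene, ranged over 92.5 to 233.0 CPM at day 0, 399.1 to 711.3 CPM at day 2 and 181.9 to 346.6 CPM at day 6, with log2 differences between genotypes of −0.07, −0.03 and 0.03. The 7 adipocyte markers summed to 472 to 1335 CPM at day 0, 6174 to 8281 CPM at day 2 and 9513 to 14930 CPM at day 6. The 7 brown adipocyte markers summed to 10.5 to 17.9 CPM at day 0, 19.3 to 43.5 CPM at day 2 and 49.0 to 73.0 CPM at day 6. Of these, 4 had enough counts to be tested. All 4 were higher at day 6 than at day 0 (median log2 change 4.05), against 32.9% of all genes. *Ucp1*, the defining brown adipocyte gene, stayed below 1 CPM in every library. The 7 pre-adipocyte markers fell from 346 to 922 CPM in sum at day 0 to 36.4 to 129 CPM at day 2, and lay at 50.4 to 286 CPM at day 6. Markers of other cell types were low. The 7 skeletal muscle markers summed to at most 11.8 CPM, with 6 of them below 1 CPM in every library, the 6 macrophage and leukocyte markers to at most 12.7 CPM and the 5 endothelial markers to at most 2.43 CPM. In bulk RNA, fewer cells that express a gene and less RNA per cell cannot be told apart. Clone and library pool coincided, since pool 1 held clone 48 and pool 2 held clone 66, and they cannot be told apart.

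The loci are given on GRCm38. The FOS genes lie at chr12:85473890-85477273 on the plus strand (*Fos*), chr7:19302696-19310051 on the minus strand (*Fosb*), chr19:5447547-5455946 on the plus strand (*Fosl1*) and chr5:32135801-32157842 on the plus strand (*Fosl2*). The JUN genes lie at chr4:95049034-95052222 on the minus strand (*Jun*), chr8:84974484-84978718 on the minus strand (*Junb*) and chr8:70698949-70700616 on the plus strand (*Jund*). *Egr2* lies at chr10:67535475-67542188 on the plus strand and *Atf3* at chr1:191170296-191218039 on the minus strand. All 10 are protein-coding genes, and their values are read pairs over all annotated exons, UTRs included. Because the counting ignored strand and dropped pairs that touched more than 1 gene, bases shared with a gene on the opposite strand contributed no counts. *Fosl1* lost 57.2% of its exon bases in this way to *Ccdc85b* and *Jund* lost 52.6% to *Gm11175*, whereas *Junb* and *Jun* lost 7.5% and 7.3%. The counts of *Fosl1* and *Jund* are therefore too low for the whole gene, and with the strand ignored a contribution of RNA from the opposite strand to these 4 genes was not tested. Levels are compared between genes only as FPKM (CPM per kilobase) on the unshared exon length.

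The promoters of *Fos*, *Fosb*, *Junb* and *Jun* are shown because these genes are controlled through short elements that bind CREB, ATF and AP-1 factors, and because the genes did not move together. Each line gives, 5′ to 3′ in the direction of transcription, up to 140 bases directly upstream of the start that RefSeq gives on GRCm38.p6, without the last 6 bases in *Fosb*, where an annotated exon begins. Capitals mark TGACG, the core of the cAMP response element, and in *Jun* TGACATCA, an AP-1 and ATF element.
Fos, chr12:85473750-85473889, plus strand: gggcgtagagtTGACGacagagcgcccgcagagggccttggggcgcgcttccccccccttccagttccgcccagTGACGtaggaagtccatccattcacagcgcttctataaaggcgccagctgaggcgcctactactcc
Fosb, chr7:19310052-19310185, minus strand: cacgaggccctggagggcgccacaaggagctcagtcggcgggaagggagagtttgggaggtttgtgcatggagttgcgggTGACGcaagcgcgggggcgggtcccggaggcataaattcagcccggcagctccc
Junb, chr8:84978749-84978888, minus strand: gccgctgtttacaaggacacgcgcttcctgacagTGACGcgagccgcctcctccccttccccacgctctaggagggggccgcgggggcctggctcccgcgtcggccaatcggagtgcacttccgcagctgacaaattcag
Jun, chr4:95052223-95052362, minus strand: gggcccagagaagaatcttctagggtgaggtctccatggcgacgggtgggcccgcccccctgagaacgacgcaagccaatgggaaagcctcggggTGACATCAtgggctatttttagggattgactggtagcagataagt

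TGACG stood in *Fos* at 129 and 66 bases, in *Fosb* at 60 bases and in *Junb* at 106 bases before the start, and TGACATCA stood in *Jun* at 45 bases before it. On both strands, 12.8% of the 32851 RefSeq promoter windows of 140 bases held TGACG and 2.28% held TGACATCA. *Fos* was the member with a TATAAA box, at 33 bases before the start, a motif present in 7.21% of the windows. The consensus AP-1 site TGACTCA was present in 2.68% of the windows and in none of the members' windows, and the full cAMP response element TGACGTCA, which contains TGACG, in 1.33% of the windows and in none of the members' windows. RefSeq windows were found for 8 of the 10 members, those without an entry being *Fosl1* and *Egr1*. Among the windows that are not printed, TGACG occurred in windows 3, 4 and 5 of the 5 of *Egr2*. It also occurred in *Atf3* at 7 bases before the start, where an annotated exon of *Atf3* begins, so this match is not upstream sequence. It did not occur in *Jund*, or in *Fosl2*, whose window overlapped an annotated exon of *Fosl2* itself and is therefore not only upstream sequence. These matches describe letters in a window and not binding.

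All 10 members passed edgeR's filter on low counts, with which 16723 genes were tested. *Fosl2* was the most counted (307 to 2480 read pairs per library), followed by *Jun* (281 to 1447), *Junb* (111 to 764), *Jund* (104 to 509), *Atf3* (31 to 670) and *Egr1* (8 to 631). *Fosl1* (9 to 145), *Egr2* (17 to 114), *Fos* (8 to 78) and *Fosb* (2 to 28) rested on few reads, so counting error is a larger part of their spread. No member was at 0 in any library.

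**Figure D1:**
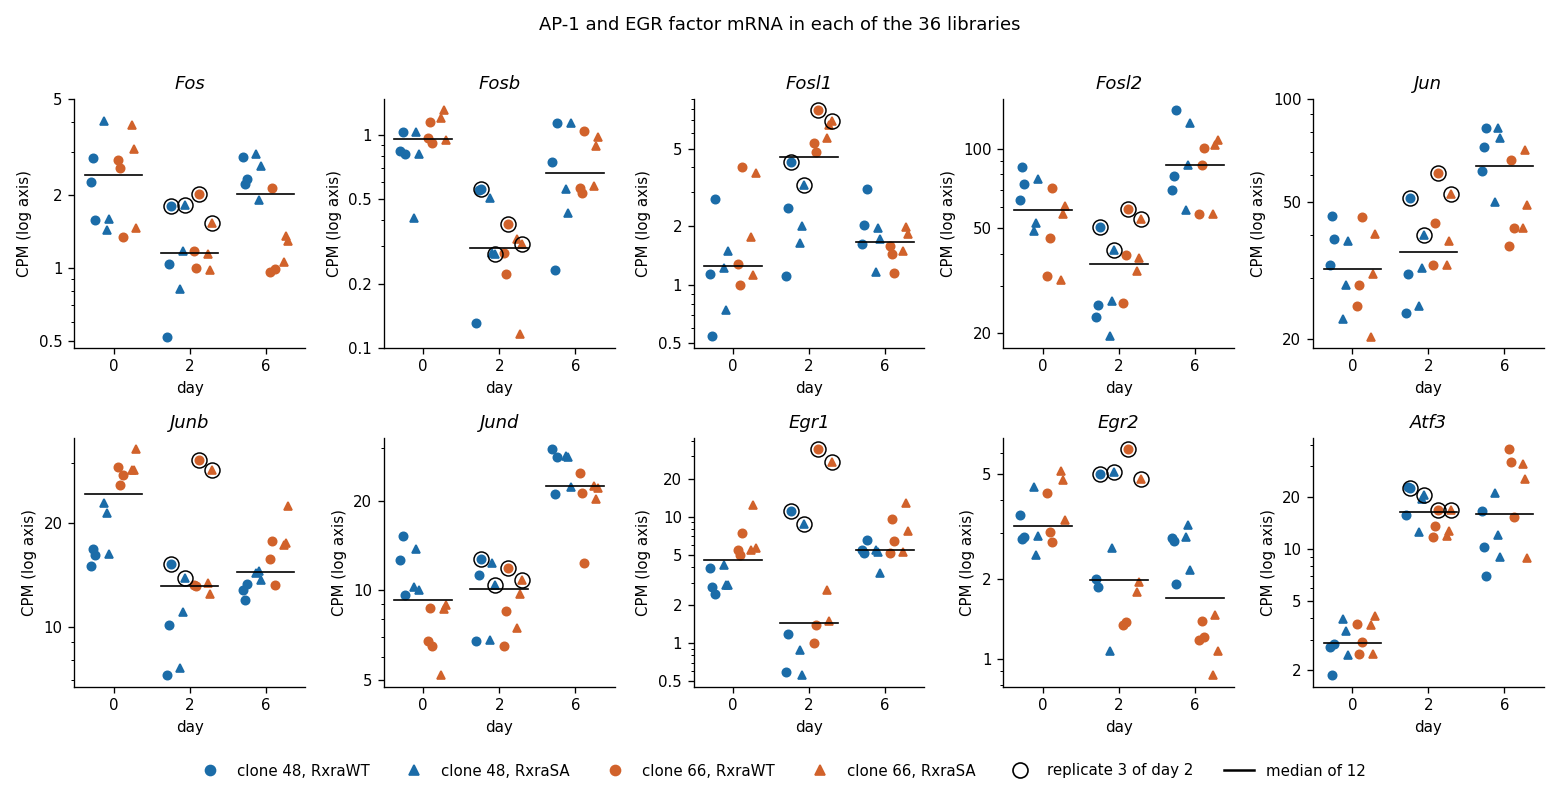
Level of each of the 10 genes in CPM (log axis) by day, with 1 point per library (colour for clone, marker for genotype, a ring for replicate 3 of day 2) and a line at the median of 12 libraries. *Atf3* lay at 1.88 to 4.10 CPM at day 0 and at 11.7 to 22.9 CPM at day 2 without overlap, while *Egr1* spread from 0.555 to 34.4 CPM at day 2, where the 4 ringed libraries are the highest.

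The day 2 libraries numbered 3 stood apart for several members, and results that rest on them are given with and without them. *Egr1*, a factor induced by serum and ERK signalling, was measured at day 2 in *Rxra*WT of clone 48 at 0.585, 1.17 and 11.0 CPM in replicates 1, 2 and 3. It measured 0.885, 0.555 and 8.70 CPM in *Rxra*SA of clone 48, 1.01, 1.38 and 34.4 CPM in *Rxra*WT of clone 66, and 2.65, 1.5 and 27.03 CPM in *Rxra*SA of clone 66. The third replicate was thus the highest of its trio in both clones and both genotypes, and its lowest value exceeded the highest of the 8 other libraries. *Egr2*, a relative of *Egr1*, lay at 4.77 to 6.21 CPM in these 4 libraries and at 1.07 to 2.63 CPM in the other 8. *Junb*, which encodes a JUN protein, measured 15.2 and 13.9 CPM in clone 48 and 30.6 and 28.6 CPM in clone 66 in replicate 3. Replicates 1 and 2 of the same clones measured 7.21 to 11.0 CPM and 12.5 to 13.4 CPM. *Fos* lay at 1.54 to 2.01 CPM against 0.520 to 1.18 CPM, and *Fosl2* at 41.3 to 59.2 CPM against 19.4 to 39.3 CPM.

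In all, 5 of the 10 members (*Egr1*, *Egr2*, *Fos*, *Fosl2* and *Junb*) were higher in each of these 4 libraries than in any of the other 8, whereas 5.82% of all genes tested were. No member was lower in all 4. Only 0.012% of genes were raised more in these 4 libraries than *Egr1*, by mean log2 CPM. *Jun* (40.1 to 60.6 against 23.7 to 43.3 CPM), *Fosl1* (3.25 to 7.90 against 1.10 to 6.63 CPM) and *Atf3* (16.8 to 22.4 against 11.7 to 22.9 CPM) overlapped. For the other 8 combinations of day and replicate number, 0 or 1 member was higher in all 4 libraries, the 1 being *Fosb* in replicate 3 of day 6, and between 0.281% and 6.28% of genes were. Of 24 other immediate early genes tested, 4 were higher in all 4 libraries, among them *Ier2* and *Myc*, and of 18 upstream regulators 3 were, among them *Mrtfa* and *Mrtfb*, coactivators of serum response factor. Of 12 reported AP-1 targets, 0 were. Of the 7 adipocyte markers, 1 was lower in all 4 and 0 were higher, against 5.05% and 5.82% of all genes. The 1 was *Pparg*, the central adipogenic receptor (327 to 345 against 384 to 490 CPM). Total counts overlapped between the 4 libraries (16924482 to 21388687) and the others (15664658 to 20203802), as did the summed adipocyte markers (6853 to 7805 against 6174 to 8281 CPM). Summed pre-adipocyte markers were 69.5 to 129 CPM against 36.4 to 85.0 CPM. The part of these differences in the results was not tested.

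**Figure D2:**
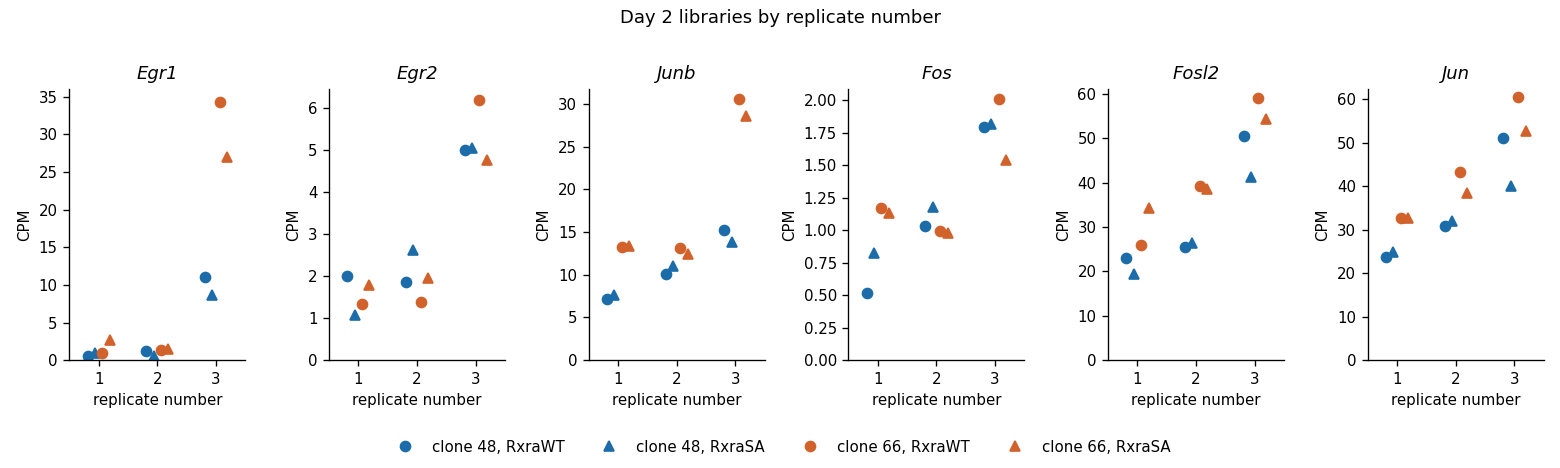
Level in CPM of members in the 12 day 2 libraries, plotted by replicate number, with 1 point per library (colour for clone, marker for genotype). In replicate 3 *Egr1* lay at 8.70 to 34.4 CPM, above the 0.555 to 2.65 CPM of replicates 1 and 2.

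Between days, the comparisons averaged over genotypes and adjusted for clone, with edgeR's quasi-likelihood test and Benjamini-Hochberg adjustment over all genes. The 3 comparisons share libraries and are not independent of each other. By day 2, 6 of the 10 members had changed, 2 upward and 4 downward, against 73.3% of all genes (35.8% upward and 37.5% downward). From day 2 to day 6, 7 members changed, 5 upward and 2 downward, against 62% of all genes (31.9% upward and 30.1% downward). Between days 0 and 6, 6 members differed, 4 upward and 2 downward, against 68.3% of all genes (32.9% upward and 35.4% downward). The share of members called was thus near the share of all genes in each comparison. Without the 4 libraries described above, an omission chosen after the data had been seen, 8 members were called at day 2 (2 upward and 6 downward), 8 from day 2 to day 6 (7 upward and 1 downward) and 7 between days 0 and 6, against 70.6%, 60.2% and 68.3% of 17172 genes. *Egr1*, *Egr2*, *Fos*, *Fosl2* and *Junb* were higher in all 4, so the omission lowered their day 2 level in advance. Their calls and p-values for day 2 without the 4 libraries are therefore no test of a change.

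**Figure D3:**
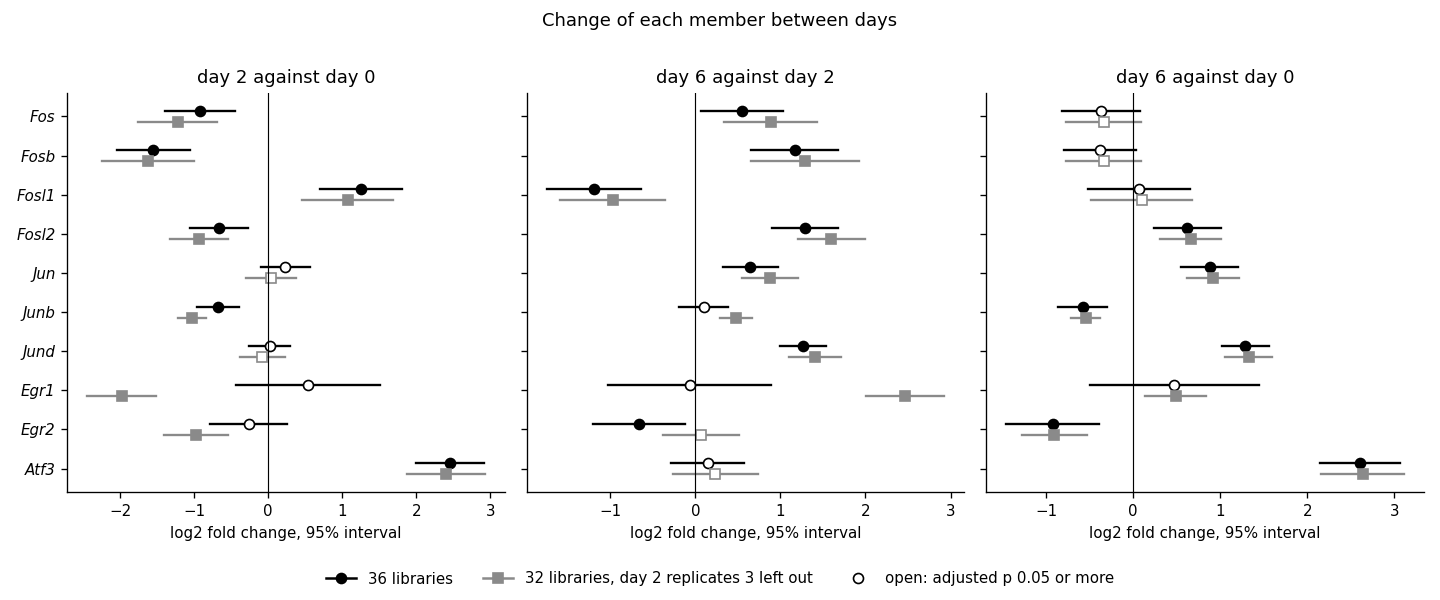
Log2 fold change of each member between days with its 95% interval, from 36 libraries (circles) and from 32 libraries with the day 2 replicates 3 left out (squares), open symbols marking an adjusted p of 0.05 or more. *Egr1* moved from 0.54 to −1.98 for day 2 against day 0, and *Atf3* stayed at 2.46 and 2.40.

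Of the FOS genes, *Fos*, *Fosb* and *Fosl2* were lower at day 2 and *Fosl1* was higher. *Fos*, which encodes the classical partner of JUN, had a lowest, median and highest level of 1.34, 2.42 and 4.05 CPM at day 0, 0.520, 1.16 and 2.02 CPM at day 2, and 0.958, 2.02 and 2.94 CPM at day 6. It fell by 0.92 on the log2 scale (SE 0.23, adjusted p = 0.00059) to day 2, with overlapping ranges. It then rose by 0.55 (SE 0.24, adjusted p = 0.043) to day 6, a level that did not differ from day 0 past the threshold (−0.37, 95% interval −0.82 to 0.08). Without the 4 day 2 libraries, in which *Fos* was higher, the fall was 1.22 (SE 0.26) and the rise 0.88 (SE 0.27). The omission pushed both values in advance, so they are no test. The mean went from 1.20 to 2.48 CPM in clone 48 and was 1.31 and 1.30 CPM in clone 66, and the difference between clones in this change did not pass the test (adjusted p = 0.20). The call for this rise was lost without replicate 1, 2 or 3 of clone 48 (log2 0.28, 0.48 and 0.60) and without replicate 2 of clone 66 (0.52).

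*Fosb*, whose product resembles FOS and has a truncated form known as ΔFOSB, lay at 0.405 to 1.31 CPM (median 0.957) at day 0 and at 0.115 to 0.557 CPM (median 0.294) at day 2. Only the lowest day 0 library overlapped the day 2 range. The fall was 2.93-fold (log2 −1.55, SE 0.24, adjusted p = 3.7e-07), and was followed by a rise of 1.17 on the log2 scale (SE 0.25, adjusted p = 8.5e-05) to 0.233 to 1.14 CPM (median 0.662) at day 6. Day 6 and day 0 did not differ past the threshold (log2 −0.38, 95% interval −0.79 to 0.04). The difference was called without replicate 3 of clone 48 (−0.57, adjusted p = 0.022) and without replicate 1 of *Rxra*SA in clone 48 at day 0 (−0.44, adjusted p = 0.048).

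*Fosl1*, which encodes FRA-1, a FOS protein without the strong activation domain of FOS, took the opposite course. It rose from 0.545 to 4.02 CPM (median 1.24) at day 0 to 1.10 to 7.90 CPM (median 4.54) at day 2, a 2.39-fold increase (log2 1.26, SE 0.27, adjusted p = 0.00011), and returned to 1.16 to 3.12 CPM (median 1.66) at day 6 (log2 −1.19 from day 2, SE 0.27, adjusted p = 0.00035). Against day 0 the log2 difference at day 6 was 0.07 (95% interval −0.51 to 0.65). The rise was 1.88-fold in the means of clone 48 and 2.89-fold in those of clone 66. Its exonic neighbour *Ccdc85b* was counted at 234 to 734 read pairs per library, above the 9 to 145 of *Fosl1*.

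*Fosl2*, which encodes FRA-2, lay at 31.7 to 85.0 CPM (median 58.6) at day 0, 19.4 to 59.2 CPM (median 36.4) at day 2 and 56.6 to 140.5 CPM (median 86.8) at day 6. It fell by 0.66 on the log2 scale to day 2 (SE 0.19, adjusted p = 0.0025) and then rose 2.44-fold to day 6 (log2 1.29, SE 0.19, adjusted p = 5.4e-07), which left it 1.54-fold above day 0 (adjusted p = 0.0044). Without the 4 day 2 libraries, in which *Fosl2* was higher, the log2 changes were −0.93 (SE 0.19) and 1.596 (SE 0.19). The omission pushed both values in advance, so they are no test. The fall to day 2 was 2.15-fold in the means of clone 48 and 1.18-fold in those of clone 66, a difference between clones that did not pass the test (adjusted p = 0.21) except with the replicate number as a block (log2 0.93, adjusted p = 0.00015).

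Of the JUN genes, *Junb* fell by day 2, while *Jund* and *Jun* rose between days 2 and 6. *Junb*, which encodes a JUN protein that can restrain the activity of JUN, lay at 15.1 to 32.9 CPM (median 24.4) at day 0, 7.21 to 30.6 CPM (median 13.2) at day 2 and 11.9 to 22.5 CPM (median 14.4) at day 6. It fell by 0.68 on the log2 scale to day 2 (SE 0.14, adjusted p = 5.8e-05) and remained 0.58 below day 0 at day 6 (SE 0.14, adjusted p = 0.00045). From day 2 to day 6 the log2 change was 0.10 (95% interval −0.19 to 0.38). Without the 4 day 2 libraries the fall to day 2 was 1.02 (SE 0.09) and the later change a rise of 0.48 (SE 0.09). *Junb* was higher in all 4, so the omission pushed both values in advance and they are no test.

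*Jun*, the most potent activator of the family, measured 20.2 to 45.4 CPM (median 31.8) at day 0 and 23.7 to 60.6 CPM (median 35.6) at day 2, ranges that overlapped (log2 0.23, 95% interval −0.09 to 0.56). At day 6 it measured 37.3 to 82.0 CPM (median 63.7), 1.84-fold above day 0 (log2 0.88, SE 0.16, adjusted p = 1.3e-05) and 1.57-fold above day 2 (adjusted p = 0.00081). The mean at day 6 was 2.09-fold that of day 2 in clone 48 and 1.18-fold in clone 66, a difference between clones of −0.83 on the log2 scale that did not pass the test (adjusted p = 0.13) except with the replicate block (adjusted p = 0.0035). *Jund*, which encodes the JUN protein that in many cells is expressed without stimulation, did the same more evenly. It lay at 5.20 to 15.3 CPM (median 9.29) at day 0, 6.54 to 12.8 CPM (median 10.1) at day 2 and 12.4 to 29.8 CPM (median 22.3) at day 6, a 2.44-fold rise over day 0 (log2 1.29, SE 0.13, adjusted p = 2.5e-10). In the comparison of day 2 with day 0 the log2 difference of *Jund* was 0.02 (95% interval −0.26 to 0.30). All but 1 of the 12 day 6 libraries were above every library of days 0 and 2, the exception being replicate 3 of *Rxra*WT in clone 66 at 12.4 CPM.

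*Atf3*, which encodes a stress-inducible ATF protein that pairs with JUN proteins, showed the largest change of the 10 members. It lay at 1.88 to 4.10 CPM (median 2.88) at day 0, 11.7 to 22.9 CPM (median 16.3) at day 2 and 7.03 to 37.8 CPM (median 16.0) at day 6. Neither later day overlapped day 0. The increase was 5.5-fold at day 2 (log2 2.46, SE 0.23, adjusted p = 1.7e-11) and 6.08-fold at day 6 (log2 2.60, SE 0.22, adjusted p = 5.4e-12), and days 2 and 6 did not differ past the threshold (log2 0.14, 95% interval −0.29 to 0.58). The spread at day 6 was wide within each trio. Replicates 1, 2 and 3 measured 37.8, 31.6 and 15.4 CPM in *Rxra*WT of clone 66, 31.1, 25.3 and 8.86 CPM in *Rxra*SA of clone 66, 16.7, 10.3 and 7.03 CPM in *Rxra*WT of clone 48, and 20.97, 12.03 and 8.97 CPM in *Rxra*SA of clone 48. The third replicate was the lowest in every trio.

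The EGR factors depended on the 4 day 2 libraries. *Egr1* lay at 2.44 to 12.3 CPM (median 4.55) at day 0, 0.555 to 34.4 CPM (median 1.44) at day 2 and 3.60 to 12.8 CPM (median 5.42) at day 6. With all libraries no comparison between days passed the threshold (log2 0.54, SE 0.48, adjusted p = 0.31 for day 2 against day 0, −0.07, adjusted p = 0.91 for day 6 against day 2 and 0.47, adjusted p = 0.39 for day 6 against day 0). Without the 4 libraries it was 3.94-fold lower at day 2 than at day 0 (log2 −1.98, SE 0.23, adjusted p = 5.4e-09), 5.52-fold higher at day 6 than at day 2 (log2 2.46, SE 0.23, adjusted p = 1.2e-10) and 0.49 higher at day 6 than at day 0 on the log2 scale (SE 0.17, adjusted p = 0.014). The 4 libraries left out held the highest *Egr1* of day 2. Their omission pushed both changes that involve day 2 in advance, so those p-values are no test. Day 6 against day 0 uses none of the 4, and its estimate hardly moved (0.47 and 0.49). Its smaller p reflects a smaller estimate of the spread between libraries. Leaving out the libraries with the highest *Egr1* of day 2 lowered that estimate in advance, so this p is no test either. The biological coefficient of variation of *Egr1*, which is the spread between libraries of a group beyond counting error, was 82.3%, or 3.37 times the trend for genes of its level, a ratio above that of 99.9% of genes. For the other 9 members this ratio lay between 0.968 and 1.68.

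*Egr2*, known as KROX20 and for a role early in adipogenesis, lay at 2.46 to 5.15 CPM (median 3.19) at day 0, 1.08 to 6.21 CPM (median 1.99) at day 2 and 0.868 to 3.19 CPM (median 1.70) at day 6. It was lower at day 6 than at day 0 by 0.93 on the log2 scale (SE 0.26, adjusted p = 0.0025). The fall was 1.21-fold in the means of clone 48 and 3.23-fold in those of clone 66. This difference between clones (log2 −1.41) did not pass the test with all libraries (adjusted p = 0.13) and passed it without the 4 libraries (log2 −1.38, adjusted p = 0.0036) and with no filter on low counts (adjusted p = 0.041). The 4 libraries belong to neither of these days, so their omission acted through the estimate of the spread between libraries. They held the highest *Egr2* of day 2, so that estimate was lowered in advance and the p without them is no test. With all libraries day 2 did not differ from day 0 past the threshold (log2 −0.27, 95% interval −0.78 to 0.25) and day 6 was below day 2 (log2 −0.66, SE 0.27, adjusted p = 0.032). That call was lost without replicate 3 of clone 48 (−0.44) and without replicate 2 (−0.68) or 3 (−0.24) of clone 66. Without the 4 libraries the log2 change was −0.98 (SE 0.21) to day 2 and 0.07 from day 2 to day 6. The omission lowered the day 2 level of *Egr2* in advance, so these values are no test of when it fell.

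Per kilobase of unshared exon, *Jund* had the highest median on every day. At day 0 the medians were 11.8 FPKM for *Jund*, 11.5 for *Junb*, 10.8 for *Jun* and 6.05 for *Fosl2*, followed by *Fosl1* (1.43), *Atf3* (1.34), *Fos* (1.03), *Egr1* (1.01), *Egr2* (0.937) and *Fosb* (0.153). Neighbours in this order overlapped, except that *Fosb* lay below *Egr2* in every library. At day 2 the order was *Jund* (12.8), *Jun* (12.04), *Atf3* (7.57), *Junb* (6.19), *Fosl1* (5.22) *Fosl2* (3.76), *Egr2* (0.585), *Fos* (0.491), *Egr1* (0.321) and *Fosb* (0.047). Only the neighbours *Fosl2* and *Egr2* and the neighbours *Egr1* and *Fosb* did not overlap, and *Egr1* itself spanned 0.124 to 7.66 FPKM. At day 6 it was *Jund* (28.2), *Jun* (21.5), *Fosl2* (8.97), *Atf3* (7.44), *Junb* (6.78), *Fosl1* (1.91), *Egr1* (1.21), *Fos* (0.860), *Egr2* (0.499) and *Fosb* (0.106), and the neighbours without overlap were *Junb* and *Fosl1*, and *Egr2* and *Fosb*. The rank of *Jund* rests on the shorter unshared length. Per full exon length its mean was 14.01 FPKM at day 6, below the 19.1 of *Jun*, and 5.82 FPKM at day 0, below *Jun* (10.4), *Junb* (10.2) and *Fosl2* (6.01).

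The composition of the FOS family shifted at day 2 and back. As a share of the summed FOS family FPKM, *Fosl2* made up 65.1% ± 10.6 (SD, n = 12) at day 0, 42.4% ± 8.86 at day 2 and 75.2% ± 4.78 at day 6. *Fosl1* made up 20.9% ± 9.89, 50.8% ± 10.2 and 16.9% ± 3.54 on the same days. *Fos* itself was 12.2% ± 6.47, 6.1% ± 1.86 and 6.91% ± 3.27, and *Fosb* never exceeded 2.69% in a library. The FRA proteins' genes thus accounted for most FOS family mRNA throughout. Per full exon length, with which *Fosl1* is understated, *Fosl2* remained the larger at day 2 (59.2% ± 7.59 against 31.3% ± 8.76), so which of the pair led at day 2 depended on the length used. In the JUN family the share of *Junb* went from 32.6% ± 9.997 at day 0 to 20.7% ± 4.77 at day 2 and 12.97% ± 3.43 at day 6, and that of *Jund* from 35.3% ± 8.61 to 38.6% ± 6.41 and 51.3% ± 6.21. *Jun* held 32.2% ± 5.99, 40.6% ± 3.22 and 35.7% ± 6.59. Per full exon length *Jund* held 22.1%, 24.5% and 35.2%, and *Jun* held 47.5% at day 6, so which of them led at day 6 also depended on the length used. Summed JUN family mRNA was 34.5 ± 4.27, 32.1 ± 9.12 and 57.4 ± 9.07 FPKM, and summed FOS family mRNA 9.18 ± 2.12, 9.34 ± 3.84 and 12.2 ± 3.31 FPKM.

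**Figure D4:**
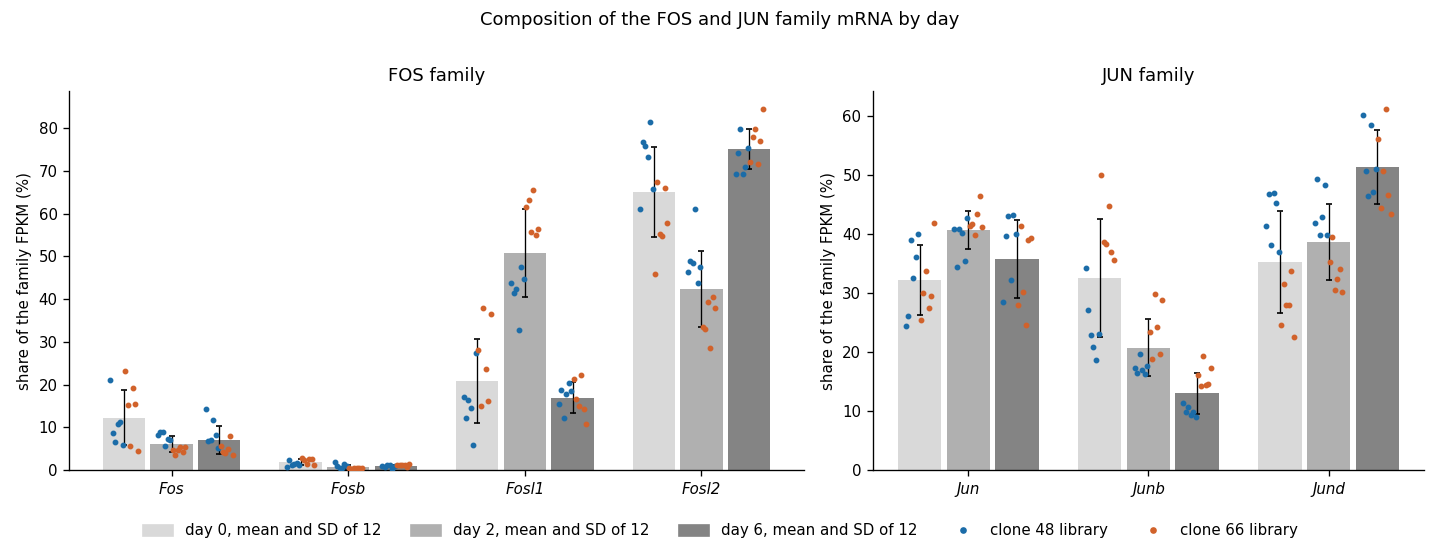
Share of each gene in the summed FPKM of the FOS family and of the JUN family by day, with bars for the mean and SD of 12 libraries and points for single libraries coloured by clone. *Fosl1* made up 50.8% of FOS family mRNA at day 2 and 16.9% at day 6, and *Junb* went from 32.6% to 12.97% of JUN family mRNA between days 0 and 6.

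Between *Rxra*SA and *Rxra*WT, none of the 10 members differed on any day, and neither did any other gene with edgeR's quasi-likelihood test (0% called on each day, with 139, 162 and 125 genes at an unadjusted p under 0.05 at days 0, 2 and 6, none of them a member). DESeq2 likewise called 0 genes, with 116, 130 and 101 at an unadjusted p under 0.05. With no difference in any gene, a share of about 0.05 of the 16723 genes would fall under that limit. The counts of both programs were well below it, so the absence of members among them is no evidence of equal levels. The members' log2 differences lay between −0.25 and 0.28 at day 0, between −0.26 and 0.01 at day 2 and between −0.17 and 0.22 at day 6. *Jun* measured 24.8 to 45.4 CPM in *Rxra*WT and 20.2 to 40.3 CPM in *Rxra*SA at day 0, and *Atf3* 1.88 to 3.71 and 2.45 to 4.10 CPM, so the genotypes overlapped. The 95% intervals of the differences had half-widths of 0.39 to 1.38 at day 0, 0.392 to 1.36 at day 2 and 0.38 to 1.36 at day 6, and were widest for *Egr1*, whose interval at day 2 ran from −1.62 to 1.10.

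With same-numbered *Rxra*SA and *Rxra*WT libraries paired within each day, the half-widths narrowed to 0.178 to 0.425, 0.182 to 0.699 and 0.176 to 0.475, and again no member was called, among 0, 1 and 0 genes in all. The members with an unadjusted p under 0.05 in this fit of edgeR were *Jun* at day 0 (log2 −0.26, SE 0.09) and *Junb* at day 0 (0.22, SE 0.09) and day 6 (0.23, SE 0.09), with adjusted p of 0.81, 0.81 and 1.0. The change over time did not differ between genotypes for any member (0% of genes called for days 0 to 2, 0 to 6 and 2 to 6, with 144, 128 and 153 genes at an unadjusted p under 0.05 in edgeR and 125, 109 and 133 in DESeq2), and nor did the effect of genotype between clones (0% of genes, with 283, 214 and 200 genes at an unadjusted p under 0.05 in edgeR and 253, 168 and 177 in DESeq2). The high *Egr1* of replicate 3 at day 2 was present in both genotypes.

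**Figure D5:**
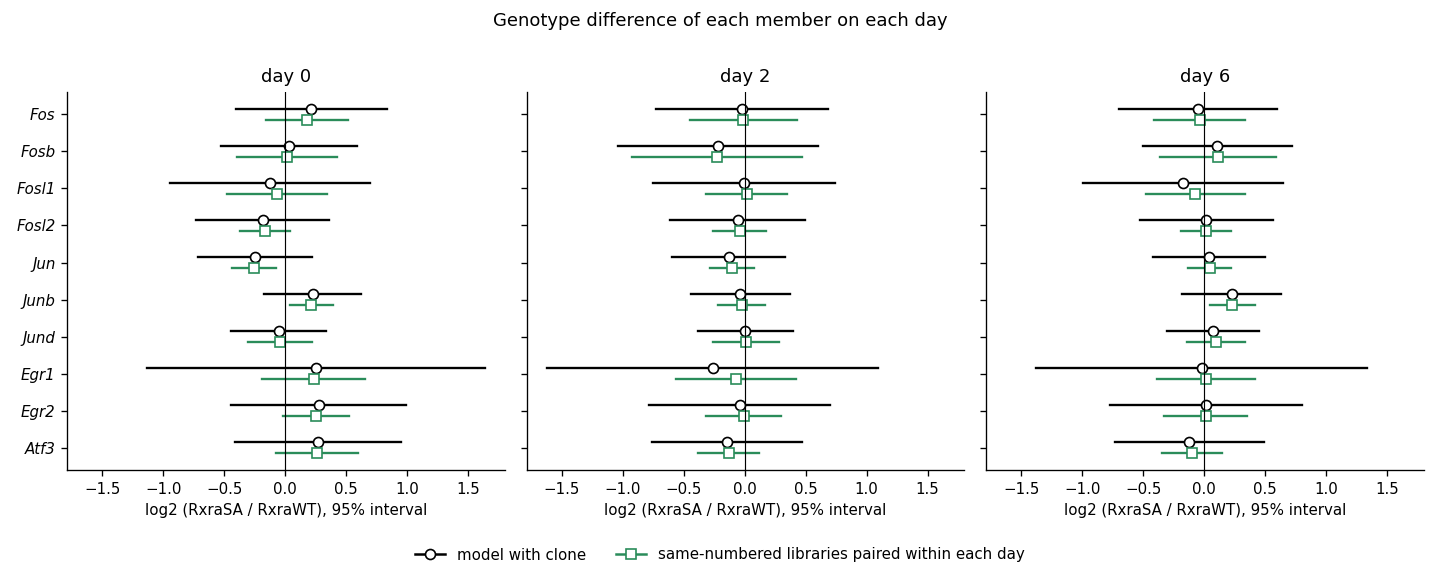
Log2 difference of *Rxra*SA from *Rxra*WT for each member on each day with its 95% interval, from the model with clone (circles) and with same-numbered libraries paired within each day (squares). All intervals from the model with clone include 0, and those of *Egr1* are the widest.

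Clones 48 and 66, each averaged over genotypes, differed in 2 members at day 0, 2 at day 2 and 3 at day 6, against 23.7%, 30% and 26.2% of all genes on these days. *Junb* was higher in clone 66, at 25.8 to 32.9 CPM against 15.1 to 22.9 CPM at day 0 (log2 0.68, SE 0.20, adjusted p = 0.015) and by 0.77 on the log2 scale at day 2 (SE 0.21, adjusted p = 0.0049). *Jund* was lower in clone 66 at day 0, at 5.20 to 8.92 CPM against 9.66 to 15.3 CPM (log2 −0.67, SE 0.19, adjusted p = 0.011). The clones did not overlap in these genes at day 0. *Fosl1* at day 2 measured 4.81 to 7.90 CPM in clone 66 and 1.10 to 4.27 CPM in clone 48 (log2 1.33, SE 0.34, adjusted p = 0.0031).

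At day 6 *Atf3* was higher in clone 66 (log2 0.98, SE 0.26, adjusted p = 0.0057), and *Fos* (log2 −0.93, SE 0.31, adjusted p = 0.023) and *Egr2* (log2 −1.14, SE 0.37, adjusted p = 0.023) were lower. *Egr2* separated without overlap, with 0.868 to 1.46 CPM in clone 66 and 1.93 to 3.19 CPM in clone 48. *Egr1* at day 0 lay at 4.97 to 12.3 CPM in clone 66 and 2.44 to 4.13 CPM in clone 48, also without overlap. This difference of 1.11 on the log2 scale missed the threshold with all libraries (adjusted p = 0.31). Without the 4 day 2 libraries, which are not part of this comparison, it was 1.10 (adjusted p = 0.0016 in edgeR). The difference itself hardly moved, and the smaller p reflects a smaller estimate of the spread between libraries. These libraries held the highest *Egr1* of day 2, so their omission lowered that estimate in advance and this p is no test.

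Apart from *Fosl1* at day 2, these clone differences depended on single replicates. Without replicates 2 or 3 of clone 48 the call for *Junb* at day 0 was lost (log2 0.72 and 0.59), and without replicate 1 of clone 48 or 3 of clone 66 that at day 2 (0.56 and 0.27). *Jund* at day 0 was −0.51 without replicate 2 of clone 48 and −0.54 without replicate 1 of clone 66. At day 6, the call for *Atf3* was lost without replicates 2 or 3 of clone 48 (0.90 and 0.73) or 1 or 2 of clone 66 (0.67 and 0.86), that for *Fos* without replicate 1 of clone 48 (−0.80) or 1 or 3 of clone 66 (−0.78 and −0.85), and that for *Egr2* without replicates 1 or 2 of clone 48 (−1.07 and −1.04) or 1 of clone 66 (−1.03). Without replicate 3 of clone 48, *Egr1* (3.85), *Fosl2* (0.85) and *Jun* (0.66) were also called at day 2, and *Fosl1* (1.250) at day 0.

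The change from day 2 to day 6 differed between clones for *Atf3*, whose mean went from 18.9 to 12.7 CPM in clone 48 and from 13.9 to 25.0 CPM in clone 66 (log2 difference 1.41, SE 0.37, adjusted p = 0.017), against 6.18% of all genes. Without the 4 day 2 libraries the difference was 1.501 with an adjusted p of 0.051. It was 1.247 and 1.04 without replicates 2 and 3 of clone 48 and 1.0 and 1.254 without replicates 1 and 2 of clone 66, with adjusted p of 0.16 to 0.21. No member passed for days 0 to 2 or 0 to 6 (6.84% and 3.85% of all genes). Between days 2 and 6 the mean of *Fosl1* went from 6.22 to 1.58 CPM in clone 66 and from 2.46 to 1.94 CPM in clone 48, a difference just short of the threshold (log2 −1.61, adjusted p = 0.051).

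Of 18 upstream regulators, the kinases, ternary complex factors and CREB family members that control the 10 genes, 9 rose, 6 fell and 3 did not pass the test by day 2 (median log2 change 0.16, against −0.02 over all genes). The shares over all genes were 35.8% upward and 37.5% downward. *Crem*, a CREB relative that includes a cAMP-inducible repressor, rose by 0.99 on the log2 scale (adjusted p = 4.4e-10) and *Rps6ka1*, an ERK-activated kinase, by 0.75. *Elk3*, a ternary complex factor, fell 6.09-fold (adjusted p = 1.6e-21), and *Mapk3*, which encodes ERK1, fell by 1.24 on the log2 scale. From day 2 to day 6, 4 rose and 4 fell, beside 31.9% of all genes upward and 30.1% downward. *Mapk3* (log2 1.33) and *Map2k1*, which encodes MEK1 (0.80), rose and *Mrtfb* (−0.50) fell. Like *Fosb* and *Fosl2*, *Mapk3* was lower at day 2 than on both other days.

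Of the 9 other basic leucine zipper partners and inhibitors, 6 were tested, and 1 rose and 3 fell by day 2 (median log2 change −0.21). Over all genes, 35.8% rose and 37.5% fell. *Jdp2*, a repressor that pairs with JUN proteins, fell by 1.34 on the log2 scale (adjusted p = 1.3e-13), and of the small MAF genes, whose products lack an activation domain, *Mafk* fell by 0.38 and *Mafg* rose by 0.52. *Maff* rose 5.22-fold from day 2 to day 6, from a mean of 7.15 to 37.6 CPM, while *Jdp2* rose by 0.70 and *Mafg* and *Mafk* fell by 0.47 and 0.43 on the log2 scale. Of the 4 EGR relatives and NAB corepressors, 2 were tested. *Nab2*, an EGR target whose product binds and represses EGR proteins, fell 4.94-fold by day 2, from a mean of 57.6 to 11.7 CPM (adjusted p = 4.9e-21), and rose by 0.83 on the log2 scale to day 6. *Nab1* rose by 0.35 and 0.27.

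Of 24 other immediate early genes tested, 9 rose, 10 fell and 5 did not pass the test by day 2 (median log2 change −0.25), beside 35.8% of all genes upward and 37.5% downward. *Trib1*, a pseudokinase gene, rose 14.4-fold and *Rhob*, a small GTPase gene, 7.83-fold, while *Gadd45b*, a stress gene, fell 6.27-fold and *Ccn1*, a matricellular gene, 5.40-fold. From day 2 to day 6, 6 rose and 10 fell, beside 31.9% of all genes upward and 30.1% downward. *Btg2* (3.91-fold) and *Ier3* (3.30-fold) rose, and *Sgk1*, a glucocorticoid-induced kinase gene, fell 10.2-fold, from a mean of 204.5 to 16.7 CPM, and *Dusp5*, which encodes an ERK phosphatase, 2.36-fold. *Ccn1* was among the genes higher in all 4 day 2 libraries numbered 3.

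Of 12 reported AP-1 targets tested, 2 rose, 7 fell and 3 did not pass the test by day 2 (median log2 change −0.91). Of all genes, 35.8% rose and 37.5% fell by then. Between days 0 and 6, 4 targets rose and 8 fell (median −2.40 against −0.03 over all genes), beside 32.9% of all genes upward and 35.4% downward. *Plau*, which encodes urokinase, fell 24.5-fold from a mean of 19.3 to 0.774 CPM, and *Spp1*, which encodes osteopontin, fell 11.3-fold. *Sphk1* (2.87-fold) and *Vegfa* (2.67-fold) rose. From day 2 to day 6, *Plau* (3.58-fold) and *Hmox1* (3.44-fold) rose, and *Cd44* (4.18-fold) and *Ccnd1* (2.95-fold) fell. In none of these lists was a gene called between genotypes on any day.

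The genes whose level across the 36 libraries was most like that of a member were sought among the 9719 genes whose mean log2 CPM was 3 or more. These values are descriptions over libraries that share clones, days and depth. For *Jun* they were *Tnfrsf1a* (Pearson r = 0.91), *Nudt18* (0.887) and *Hexim1* (0.877). For *Fosl1* they were *Degs1* (0.866), *Rexo2* (0.825) and *Hnrnpll* (0.824), for *Egr1* *Gatad2b* (0.727), *Cdc42ep1* (0.715) and *Sipa1* (0.712), and for *Fos* *Lrch1* (0.702), *Cacnb2* (0.689) and *Zmym3* (0.678).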

How the data were processed

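The authors prepared stranded total RNA libraries (paired-end), aligned reads with STAR 2.7.0d to GRCm38 and counted pairs per GENCODE M21 gene with featureCounts 1.6.2, ignoring strand. They deposited raw counts per gene for each of the 36 libraries, and all 55536 identifiers matched GENCODE M21. Members and gene lists were chosen with earlier results of these data known, and list genes were named as up to 2 that rose most and 2 that fell most per pair of days, of which 1 is not reported here. The deposit calls the 3 libraries per cell line technical and the study calls them independent, so p-values measure only the spread between these libraries. No 2 libraries of a group were duplicates (chi-square per degree of freedom 12.2 to 192).

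Counts were filtered (filterByExpr), scaled by TMM and tested with edgeR 4.0.16 (legacy quasi-likelihood, genotype and day groups plus clone, as in the study, or clone-specific groups for clone contrasts), calling Benjamini-Hochberg adjusted p under 0.05. Same-numbered libraries of the genotypes deviated together in 18 of 18 pairs (correlation 0.178 to 0.922), so a fit paired within each day is also given. The model was tested on simulated data. DESeq2 1.42.0, other scalings, filters, a replicate block and omitted libraries were alternatives. R 4.3.3 and Python 3.11.15 were used.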

Additional observations from a re-analysis of the deposited data

Results flagged for a closer look

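Of 60 groups of 6 libraries of a member, 7 held a library far from the other 5. Each group pooled both clones, and same-numbered libraries of the genotypes deviated together, so no rate by chance is given. Of the 7, 4 were replicate 3 of clone 66 at day 2. *Egr1* in that replicate measured 34.4 CPM in *Rxra*WT (others 0.585 to 11.0) and 27.03 CPM in *Rxra*SA (others 0.555 to 8.70), and *Junb* measured 30.6 CPM (others 7.21 to 15.2) and 28.6 CPM (others 7.59 to 13.9). *Egr1* in replicate 2 of clone 66 measured 12.3 CPM in *Rxra*SA at day 0 (others 2.86 to 5.60) and 9.53 CPM in *Rxra*WT at day 6 (others 5.12 to 6.57). *Fosl1* in replicate 3 of clone 66 measured 3.75 CPM in *Rxra*SA at day 0 (others 0.744 to 1.75). The same replicate number was also the highest of the other genotype's trio in each of these cases except *Egr1* at day 0.

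The change of *Atf3* from day 2 to day 6 differed between clones, by 1.41 on the log2 scale (edgeR, adjusted p = 0.017), in 2 clones that were also 2 library pools. The cause was not tested.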

How the results depend on the processing

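The numbers of members called between days and between genotypes stayed within 1.5 times the reported number under every alternative. Between clones, leaving out a replicate number of a clone gave 0 to 2 members at day 0, 1 to 5 at day 2 and 0 to 2 at day 6, and 0 to 2 for the change from day 2 to day 6. That last count of 1 was 2 with no filter, with a filter of 1 CPM, with RLE size factors or library size alone, and with DESeq2 or edgeR's version 4 test, 4 with the replicate block (*Atf3*, *Fosl1*, *Fosl2* and *Jun*) and 0 without the 4 day 2 libraries numbered 3. For days 0 to 2 the block gave 1 member (*Fosl2*), and for days 0 to 6 no filter or omission of these 4 gave 1 (*Egr2*).

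Directions turned in log2 fold changes as follows, with the range over the omission of each replicate of a clone. For day 2 against day 0, library size alone, which moved the median of all genes to −0.27, gave −0.024 for *Jun* and −0.24 for *Jund*. *Jund* was also −0.004223 with the 1 CPM filter, −0.012 without a clone term, −0.077 without the 4 libraries and −0.10 to 0.15 over omitted replicates. *Egr1* was −0.061 with the block, −1.98 without the 4 libraries and −0.56 (without replicate 3 of clone 66) to 0.85 over omitted replicates. For day 6 against day 2, *Egr1* was 0.51 with the block, 2.46 without the 4 libraries and −0.35 to 1.05 over omitted replicates, *Egr2* 0.070 without the 4 libraries, *Atf3* −0.16 (without replicate 1 of clone 66) to 0.44 and *Junb* −0.029 to 0.34. For day 6 against day 0, *Fosl1* was −0.11 with library size alone, where *Fos* (−0.56) and *Fosb* (−0.57) also passed the threshold, and −0.17 to 0.47 over omitted replicates. The clone difference was −0.037 (without replicate 3 of clone 66) to 1.250 for *Fosl1* at day 0 and −1.28 (without the same) to 3.85 for *Egr1* at day 2. Beyond the omission itself, the cause was not tested.

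Replicate numbers were shared across days without a stated pairing: deviations correlated above 0.1 in 28 of 36 pairs, and a library correlated best with its own number in 43 of 72 cases. The replicate block left 5 members called from day 2 to day 6, without *Fos* (0.53, adjusted p = 0.054) and *Egr2* (−0.59, adjusted p = 0.056). Counts of 2 to 28 read pairs limit *Fosb*.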
